A study of Mus musculus with 6 samples.

Results

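The subunits of RNA polymerases I, II and III were examined in RNA-seq of mouse MLL-AF9 leukemia bone marrow. Members were the protein-coding genes whose symbol starts with Polr1, Polr2 or Polr3 followed by a letter. The members described are 27 of the 55487 genes in the table, namely 5 Polr1, 13 Polr2 and 9 Polr3 genes, and the rule used no measured value. Another 4 subunit genes carry other symbols in the annotation (Twistnb, Cd3eap, Znrd1 and Crcp) and are described beside the 27 without being counted among them. All 27 passed the filter on low values, a mean normalized count of at least 10. The study asked what loss of Brd9, a bromodomain subunit of a non-canonical BAF chromatin remodeling complex, does to established leukemia. Each recipient (CD45.1+ CD45.2-) was lethally irradiated with 2 fractions of 450 cGy and received 1000 leukemia cells from C57BL/6 CD45.2+ donors, per the sample labels. The donor cells of both groups carried Mx1-Cre, Brd9 fl/fl and MLL-AF9 (MA9), a fusion oncogene delivered with GFP. One group then received PBS and the other pIpC at 20 mg/kg, 3 injections each, and GFP+ cells of femora and tibiae were collected 10 days later, 3 libraries per group. pIpC is a double-stranded RNA mimic that raises interferon, and the Mx1 promoter that drives Cre answers to interferon also in cells that are not leukemic. The paper's methods name c-Kit+ cells, a stranded kit and sublethal irradiation, whereas the labels give GFP+ cells and unstranded libraries. The labels do not say that the libraries came from separate animals, so that p-values measure only the spread between these libraries. Effects of the deletion, of pIpC and of the cell make-up cannot be told apart in this design.

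RNA polymerase I transcribes the ribosomal RNA precursor, polymerase II messenger RNAs, and polymerase III transfer RNAs, the 5S ribosomal RNA and other small RNAs. Each enzyme is built around a pair of large catalytic subunits of its own. A further set of small subunits sits in all 3 enzymes, a pair is shared by polymerases I and III, and the remainder form a stalk, a heterodimer related to the initiation factor TFIIF, and RNA-cleavage subunits. Growing hematopoietic and leukemic cells are known for high ribosomal RNA and transfer RNA synthesis.

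The libraries held between 19277439 and 23586722 reads on genes. Brd9 itself was counted at 1927, 1946 and 1632 in PBS replicates 1, 2 and 3 and at 2036, 2263 and 2011 in the libraries labelled pIpC. The difference was 0.20 ± 0.13 (SE, limma adjusted p = 0.259) and did not pass the test. The groups did not overlap, with the libraries labelled pIpC higher, as for 30.5% of all genes tested. The gene-level count of Brd9 was thus not lower in those libraries, although a count of the whole gene does not test a deletion of a few exons. The groups also differed in markers of other cells. Of 14 neutrophil markers, 12 passed the test as higher, and their sum took from 9.86% to 10.1% of the reads of libraries labelled pIpC and from 0.518% to 0.889% of PBS reads. All 10 erythroid markers tested and all 12 B cell markers were higher. The summed normalized count of the erythroid markers rose from between 19.9 and 39.6 to between 4562 and 6291, and that of the B cell markers from between 1784 and 3003 to between 10880 and 40725. Ighm made up most of the B cell sum, at 1587, 1749 and 2697 in PBS and 39147, 8397 and 17362.5 in libraries labelled pIpC. Slc4a1, Rhag and Ms4a1 had no read in any PBS library. Of 12 macrophage markers 9 were higher and 2 lower, and all 7 T and NK cell markers tested were higher. Hoxa9, a defining gene of this leukemia, had normalized counts of 4917, 5172 and 5301 in PBS and 224, 276 and 269 in libraries labelled pIpC, and 6 of 8 genes of the leukemia list were lower and 1 was higher. The part of these cells in the values below was not tested, and in bulk samples fewer cells of a type and less RNA per cell cannot be told apart.

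Between the groups, 5 of the 27 subunits were lower in the libraries labelled pIpC and none was higher, by limma on log2(normalized count + 1) at a Benjamini-Hochberg adjusted p under 0.1. They were Polr3d, Polr3e and Polr3k of polymerase III, Polr1b of polymerase I, and Polr2h, which all 3 enzymes share. Over all 15020 genes tested, 20.4% were lower and 25.0% were higher, so that the 18.5% of subunits called lower is close to the background. At an unadjusted p under 0.05 the count of higher subunits was also 0, and it was 0 by edgeR and by DESeq2. The groups did not overlap for 7 members that were lower and 1 that was higher, against 26.3% and 30.5% of all genes. Fold changes below are differences in log2(normalized count + 1), the libraries labelled pIpC minus PBS, with the standard error of the fit.

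PBS replicate 3 stood apart from its group, and the 95% intervals of all 27 members were narrower without it. Its normalized counts were above those of both other PBS libraries for 18 members (45.2% of all genes tested) and below both for 8 (43.8%). Without this library, 8 subunits were lower and 1 was higher, where 30.6% of all genes were lower and 34.5% were higher. The 5 subunits called with all libraries were called again, joined by Polr1e, Polr2a and Polr2k, all lower, and by Polr2l, which was higher. Polr1b, Polr3d and Polr3e were the 3 members called whichever of the 6 libraries was left out. That is 3 of 27 members, beside 4380 of the 15020 genes tested, a larger share. Without pIpC replicate 2, or without pIpC replicate 3, Polr2h and Polr3k missed the threshold, leaving 3 members called. Without pIpC replicate 1 Polr2h missed it as well, leaving 4, and without PBS replicate 1 the count was 8.

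**Figure D1:**
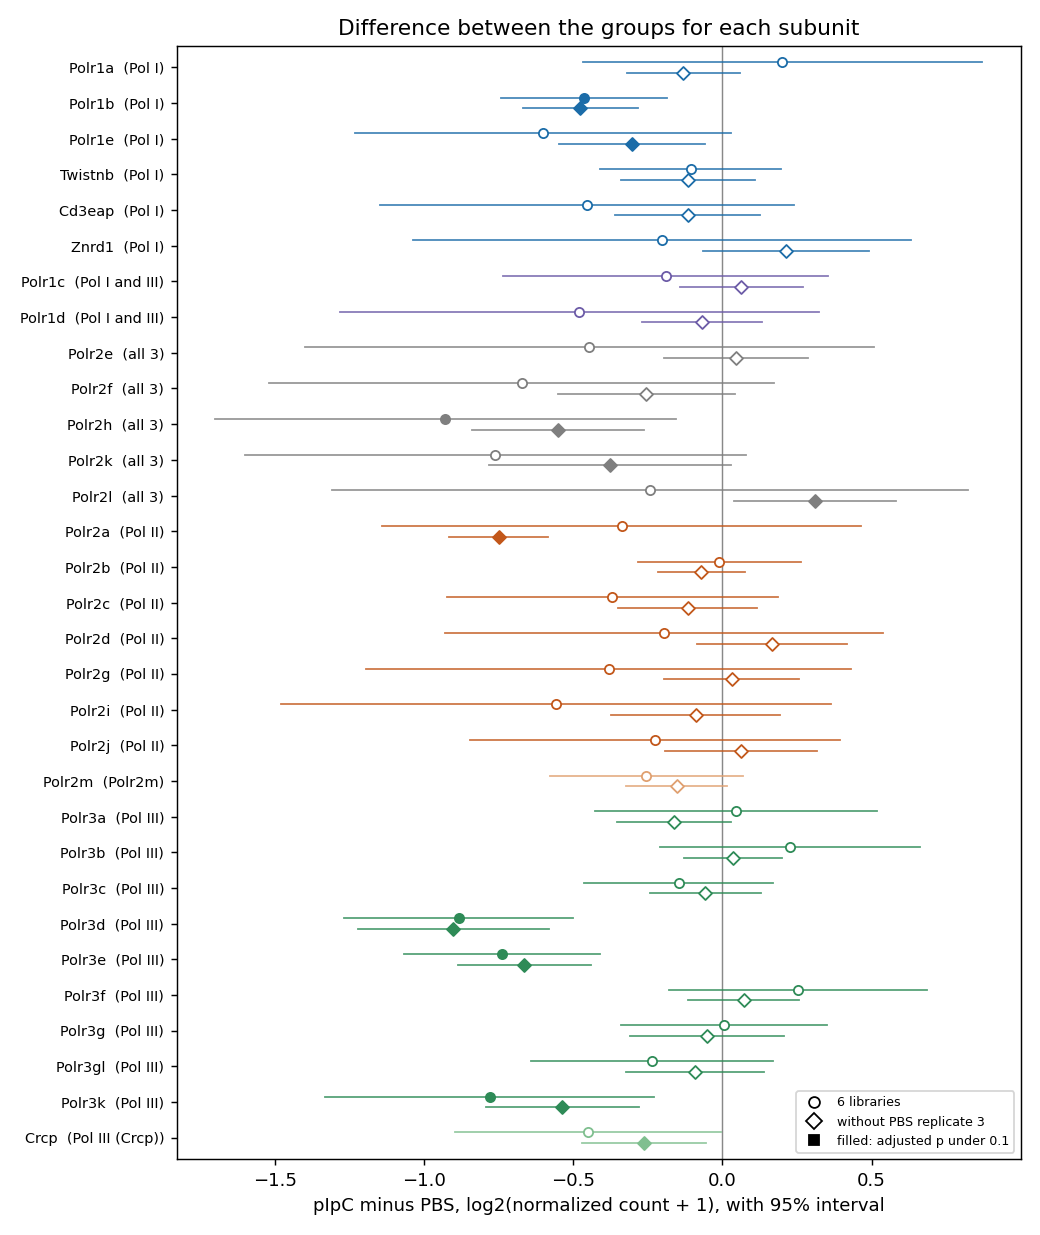
Difference between the groups for the 31 subunit genes, on the log2(normalized count + 1) scale, with 95% intervals, for all 6 libraries (circles) and without PBS replicate 3 (diamonds). Filled symbols have a limma adjusted p under 0.1. The polymerase III subunits Polr3d, Polr3e and Polr3k lie left of 0 in both fits, and the intervals of most other subunits narrow when PBS replicate 3 is left out.

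Among the 9 Polr3 genes described, 3 were lower, none was higher and 6 did not pass the test, with a median difference of -0.15 against 0.01 over all genes tested. Polr3d and Polr3e encode the TFIIF-related heterodimer that works in initiation and termination, and Polr3k a subunit related to the RNA-cleavage factor TFIIS. Polr3d (ENSMUSG00000000776, chr14:70438757-70443447 of GRCm38, minus strand) had normalized counts of 458, 455 and 440.2 in PBS replicates 1, 2 and 3 and of 274, 206 and 256 in the libraries labelled pIpC. All 3 PBS values lay within a narrow range and above all 3 others. The difference was -0.88 ± 0.16 (SE, n = 3 per group, limma adjusted p = 0.00556), and -0.90 without PBS replicate 3. Polr3e (ENSMUSG00000030880, chr7:120917744-120947432, plus strand) was counted at 1266, 1291 and 1492 in PBS and at 912, 762 and 754 in the libraries labelled pIpC. The groups did not overlap, with a difference of -0.74 ± 0.14 (SE, limma adjusted p = 0.00619), or -0.66 without PBS replicate 3.

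The bases upstream of 4 subunit genes are shown, for genes chosen after their values were seen. Polr3e and Polr1b were called whichever library was left out, Polr3k with and without PBS replicate 3 but not without pIpC replicate 2 or 3, and Polr2a without PBS replicate 3 but not with all libraries. They come from RefSeq promoter windows on GRCm38.p6 of 250 bases before to 50 after the annotated start, and 22 of the 27 members had a window. Polr2d, Polr2g, Polr2k, Polr3a and Polr3d did not. Each stretch is the longest run before the start that lies outside GENCODE exons and the gene's own RefSeq span. Capitals mark the motifs searched on both strands: the E-box (CACGTG), the core of the polymerase III B box (GGTTCGA), the TATA element (TATAAA), the GC box (GGGCGG), the CCAAT box and the ETS motif (CCGGAAGT).
Polr3e (chr7:120917528-120917743, plus strand): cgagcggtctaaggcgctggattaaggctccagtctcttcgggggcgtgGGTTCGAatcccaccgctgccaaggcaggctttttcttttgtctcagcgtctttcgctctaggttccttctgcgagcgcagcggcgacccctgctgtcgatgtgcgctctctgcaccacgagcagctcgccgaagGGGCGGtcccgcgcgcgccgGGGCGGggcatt
Polr3k (chr2:181864110-181864336, plus strand): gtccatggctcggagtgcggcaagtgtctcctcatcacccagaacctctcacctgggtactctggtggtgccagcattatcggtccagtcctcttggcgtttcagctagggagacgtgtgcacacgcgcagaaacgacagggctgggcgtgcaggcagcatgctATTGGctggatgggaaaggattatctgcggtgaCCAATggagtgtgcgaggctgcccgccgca
Polr1b (chr2:129100746-129100969, plus strand): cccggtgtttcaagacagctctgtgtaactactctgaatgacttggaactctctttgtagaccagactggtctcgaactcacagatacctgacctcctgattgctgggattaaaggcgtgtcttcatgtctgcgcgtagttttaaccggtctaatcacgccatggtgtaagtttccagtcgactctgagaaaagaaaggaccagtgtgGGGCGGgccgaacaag
Polr2a (chr11:69758638-69758883, minus strand): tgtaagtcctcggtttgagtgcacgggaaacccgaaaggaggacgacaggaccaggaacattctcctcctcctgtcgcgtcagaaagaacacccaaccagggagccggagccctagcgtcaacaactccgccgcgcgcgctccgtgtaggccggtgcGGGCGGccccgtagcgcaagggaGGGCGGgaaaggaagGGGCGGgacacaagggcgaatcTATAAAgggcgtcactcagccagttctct

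The Polr3e stretch holds the core of a B box, the internal promoter element of transfer RNA genes, whose first base lies 201 bases before the start. RefSeq annotates the transfer RNA gene n-TLaag4, itself a template of polymerase III, at chr7:120917517-120917598, across this position. RefSeq also annotates a long non-coding RNA, Gm46764, at chr2:129092773-129100943, over much of the Polr1b stretch. No other subunit window held this core, which 0.910% of all 32851 windows hold. Near the start, Polr3e and Polr2a carry GC boxes (2 and 3 in the stretches shown), Polr1b has 1, and Polr3k has CCAAT on either strand at 86 and 53 bases before the start. Polr2a has TATAAA from 33 bases before its start, a motif in 13.6% of all windows and in 2 of 22 members (Polr2a and Polr2c). The E-box, the site read by MYC, was found in windows of 4 of 22 members (Polr2h, Polr3c, Polr3e and Polr3gl), against 7.15% of all windows. In Polr3e and Polr2h it lies after the start. GC boxes were in 14 of 22 members (35.7% of all windows), CCAAT in 7 (37.4%) and the ETS motif in 5 (3.89%). Members were counted with the motif in any of their windows, whereas the percentages are per window. Of the 24 member windows, 4 held the E-box, 15 a GC box, 7 CCAAT and 5 the ETS motif. Subunit windows had a median GC content of 59.1%, against 52.7% over all windows, and the part of this in these counts was not tested. Neither the E-box nor the GC box separated the called from the other members, since Polr3k held neither and Polr3c held both.

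Polr3k (ENSMUSG00000038628) was counted at 964, 1116 and 1721 in PBS and at 808, 698 and 647 in the libraries labelled pIpC, again without overlap. Its difference was -0.78 ± 0.23 (SE, limma adjusted p = 0.0384). With PBS replicate 3 left out it was -0.54. Crcp, a stalk subunit, had a difference of -0.45 ± 0.19 (SE, limma adjusted p = 0.105), and of -0.26 (limma adjusted p = 0.0341) without that library.

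The catalytic pair of polymerase III gave a different picture. Polr3a, the largest subunit, was counted at 737, 726 and 474 in PBS and at 628, 692 and 644 in the libraries labelled pIpC. Polr3b, the second largest, was counted at 1571, 1425 and 1003 and at 1569.9, 1527 and 1504. In both genes PBS replicate 3 was the lowest of the 6 libraries. The differences were 0.05 (95% interval -0.43 to 0.52) for Polr3a and 0.23 (-0.21 to 0.66) for Polr3b. Without PBS replicate 3 they were -0.16 and 0.04, and neither passed the test in either fit. Polr3c, Polr3f and Polr3g or its paralog Polr3gl form the trimer that works in promoter opening. Polr3f had the highest difference of the polymerase III subunits, with counts of 649.8, 631 and 438 in PBS and of 676, 649.8 and 693 in the libraries labelled pIpC. That difference was 0.25 (95% interval -0.18 to 0.69) and did not pass the test, although the groups touched without overlapping. Polr3c differed by -0.15 (-0.46 to 0.17).

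Polr3g and Polr3gl encode alternative versions of the same subunit, the former known from stem cells and tumors and the latter from most tissues. Polr3g was counted at 264, 263 and 234 in PBS and at 255, 254 and 254 in the libraries labelled pIpC. Polr3gl was counted at 613, 588 and 811 and at 606, 508 and 581. Neither passed the test, with differences of 0.01 (95% interval -0.34 to 0.35) and -0.24 (-0.64 to 0.17). Per kilobase of the longest transcript, Polr3g made up 15.3% ± 3.0 (SD, n = 3) of the sum of both in PBS and 17.5% ± 1.3 in the libraries labelled pIpC. This share did not differ beyond the spread (two-sided exact permutation test on the log2 ratio, p = 0.5, with 0.1 the smallest p that 3 against 3 allows).

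**Figure D2:**
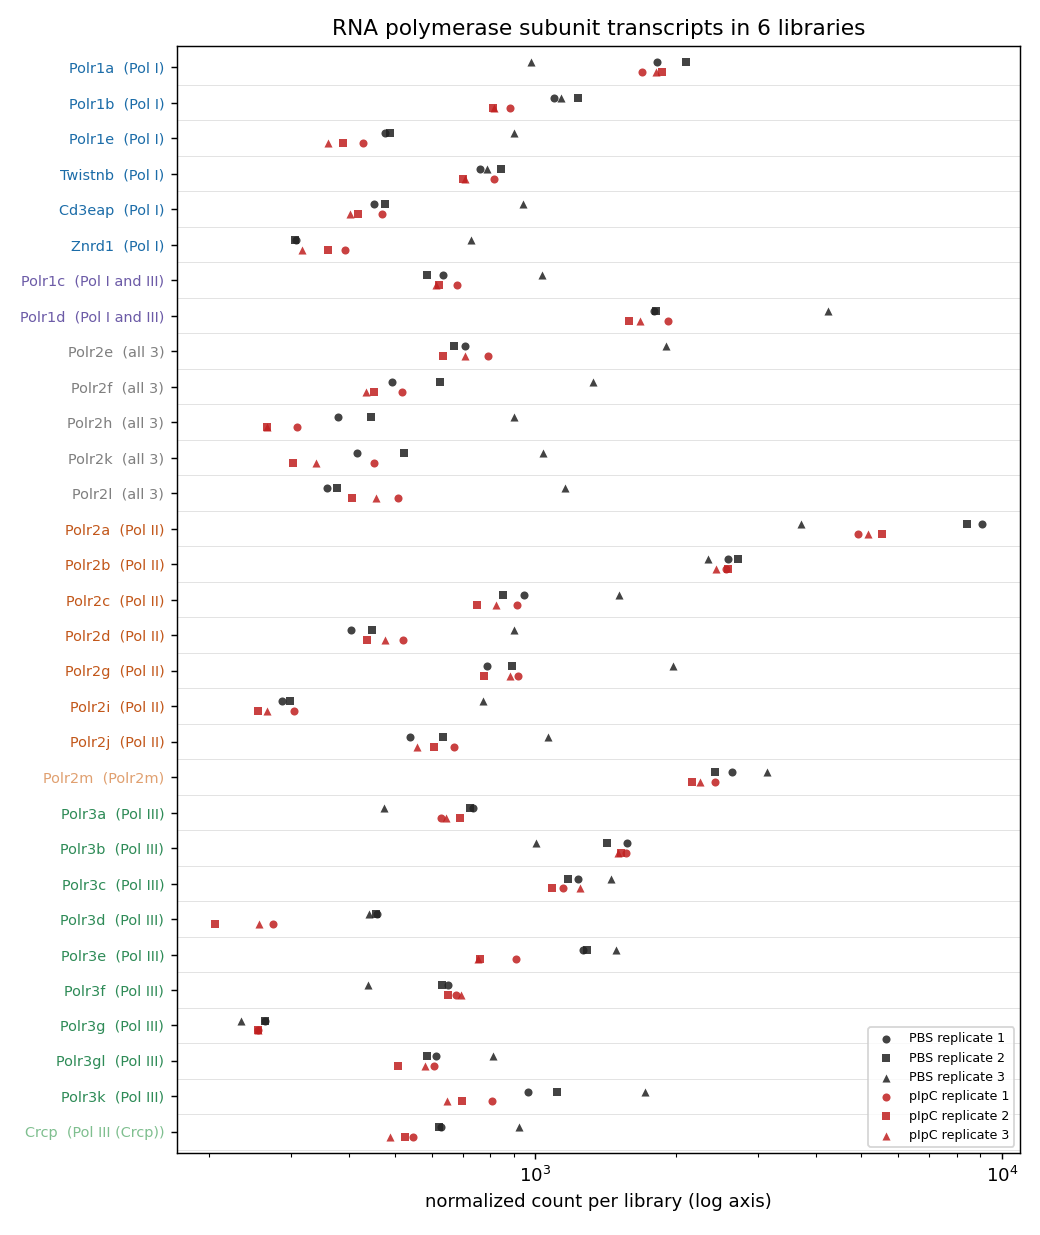
Normalized counts of the 31 subunit genes in each of the 6 libraries, on a log axis, with PBS libraries in black and libraries labelled pIpC in red. Replicate numbers are given by the marker. PBS replicate 3 (black triangle) lies to the right of the other PBS libraries for most small subunits and to their left for Polr2a, Polr1a, Polr3a, Polr3b and Polr3f.

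For polymerase I, 1 of the 6 genes used by this enzyme alone was lower and none was higher, with a median difference of -0.33. Polr1b (ENSMUSG00000027395, chr2:129100995-129126594, plus strand), the second largest catalytic subunit, was counted at 1099.7, 1235 and 1134 in PBS and at 885, 814 and 815 in the libraries labelled pIpC. PBS replicate 3 lay between the other PBS libraries here. The difference was -0.46 ± 0.12 (SE, limma adjusted p = 0.0212), and -0.48 without PBS replicate 3. Polr1a, its catalytic partner and the largest subunit, was counted at 1828, 2109 and 982 in PBS and at 1694, 1875 and 1814 in the libraries labelled pIpC. It had the highest difference of the group, 0.20 (95% interval -0.47 to 0.87), and the sign turned to -0.13 without PBS replicate 3. Polr1e, of the TFIIF-related heterodimer of this enzyme, had the lowest.
Its counts were 477, 489 and 899.7 in PBS and 428, 388 and 361 in the libraries labelled pIpC. The difference of -0.60 ± 0.26 (SE, limma adjusted p = 0.122) passed only when PBS replicate 1 or 3 was left out, when the trend with transcript length was removed, or by edgeR and DESeq2. Its partner Cd3eap differed by -0.46, the stalk subunit Twistnb by -0.11 and the cleavage subunit Znrd1 by -0.20, none past the threshold. Polr1c and Polr1d, which polymerases I and III share, did not pass either. Polr1c was counted at 635, 586 and 1035 in PBS and at 679.7, 622 and 613 in the libraries labelled pIpC. Polr1d was counted at 1802, 1812 and 4243 and at 1924, 1586 and 1675. In both, PBS replicate 3 was the highest of the 6 libraries and the other 5 overlapped. The differences of -0.19 and -0.48 shrank to 0.06 and -0.07 without it.

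Of the 5 small subunits of all 3 enzymes, Polr2h was lower and the other 4 did not pass the test. The median difference was -0.67 with all libraries and -0.25 without PBS replicate 3. Polr2h (ENSMUSG00000021018, chr16:20717665-20722267, plus strand) was counted at 379, 444 and 899.7 in PBS and at 308, 267 and 266 in the libraries labelled pIpC. The groups did not overlap. It had the largest difference of all 27 members, -0.93 ± 0.32 (SE, limma adjusted p = 0.0643), but 1 library carried much of it, and the value was -0.55 (limma adjusted p = 0.00508) without PBS replicate 3. The call of Polr2h was lost when any of the libraries labelled pIpC was left out. Polr2l had the highest difference of these 5, with counts of 357, 376 and 1159 in PBS and of 509, 405 and 455 in the libraries labelled pIpC. It differed by -0.24 (95% interval -1.31 to 0.82) with all libraries, and by 0.31 (limma adjusted p = 0.0508) in the other direction when PBS replicate 3 was left out. Polr2e was counted at 706, 669 and 1913 in PBS and at 794, 635 and 708 in the libraries labelled pIpC, with a sign that also turned, from -0.45 to 0.05. Polr2f and Polr2k differed by -0.67 and -0.76, and by -0.25 and -0.38 without that library. Polr2k has an annotated pseudogene, Polr2k-ps, which held at most 6 reads in a library.

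None of the 7 subunits used by polymerase II alone passed the test with all libraries, and the median difference was -0.34. None had an unadjusted p under 0.05, and edgeR and DESeq2 also called 0. Polr2a (ENSMUSG00000005198, chr11:69733997-69758637, minus strand), the largest subunit, carries the C-terminal repeats that are phosphorylated during transcription, and it was the most counted of all members. Its counts were 9079.5, 8415 and 3707 in PBS and 4918, 5537 and 5159 in the libraries labelled pIpC. PBS replicate 3 lay below all 3 libraries labelled pIpC, and the other 2 PBS libraries lay above them. The difference was -0.34 (95% interval -1.14 to 0.47, limma adjusted p = 0.465) with all libraries and -0.75 ± 0.07 (SE, limma adjusted p = 3.32e-05) without PBS replicate 3. Polr2b, its catalytic partner, was counted at 2589.6, 2725 and 2343 in PBS and at 2563, 2594 and 2436 in the libraries labelled pIpC. It had the smallest difference of this group, -0.01 (95% interval -0.28 to 0.26). Polr2i, an RNA-cleavage subunit, had the lowest, with counts of 286, 299 and 775 in PBS and of 304, 255 and 267 in the libraries labelled pIpC. Its difference of -0.56 (95% interval -1.48 to 0.36) shrank to -0.09 without PBS replicate 3, and 26.8% of its exon bases are shared with Tbcb on the other strand, where reads of unstranded libraries cannot be assigned. Polr2c and Polr2j, of the assembly platform, differed by -0.37 and -0.23, and share 18.1% and 15.9% of their exon bases with Dok4 and Lrwd1. Polr2d and Polr2g, the stalk, differed by -0.20 and -0.38. Without PBS replicate 3 these 4 genes lay between -0.12 and 0.17. Polr2m, which binds polymerase II and is not a core subunit, was lower in every library labelled pIpC than in every PBS library, at -0.26 ± 0.14 (SE, limma adjusted p = 0.187).

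Over the members, the position of PBS replicate 3 followed transcript length. Of the 18 members whose longest transcript is at most 3500 bases, 16 were higher in PBS replicate 3 than in both other PBS libraries. Of the 9 longer ones, 6 were lower than in both. The small subunits Polr2l, Polr2e and Polr2i were at 3.16, 2.78 and 2.65 times the mean of replicates 1 and 2, and Polr2a and Polr1a at 0.424 and 0.499 times. Spearman's rho between length and the log2 deviation of PBS replicate 3 was -0.80 over the 27 members, which share the library, as a description. Over the 14977 tested genes with a length it was -0.49. Among all genes tested, the median deviation was 0.92 for transcripts of up to 1000 bases and -0.81 for those of over 6000 bases. Polr3d, Polr1b and Polr3e were among the members that PBS replicate 3 moved least, at 0.964, 0.971 and 1.17 times the mean of the other PBS libraries.

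**Figure D3:**
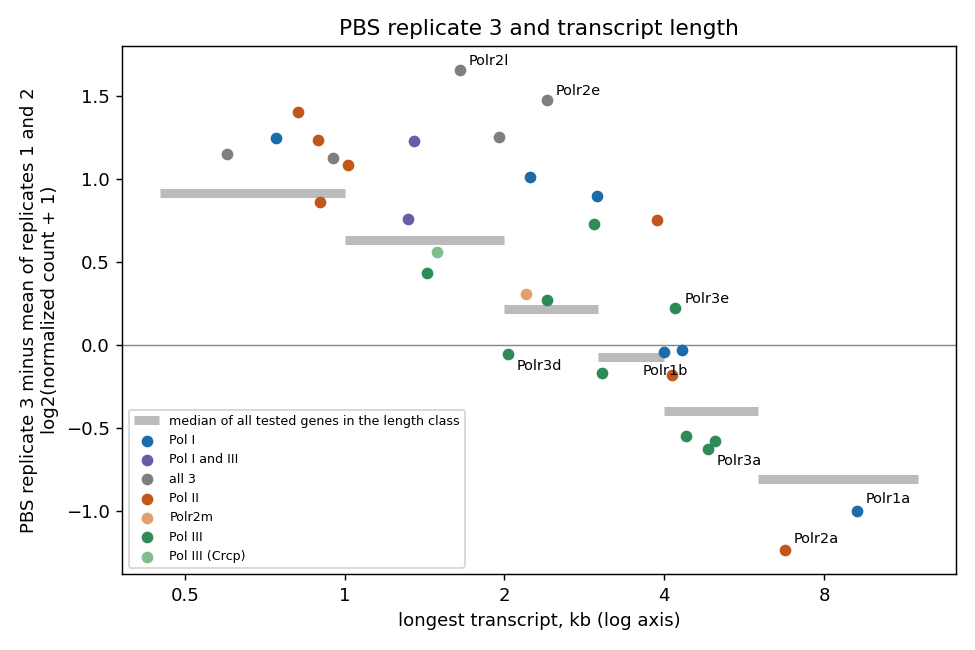
Deviation of PBS replicate 3 from the mean of PBS replicates 1 and 2, on the log2(normalized count + 1) scale, against the length of the longest transcript in kilobases on a log axis. Points are the 31 subunit genes colored by enzyme, and grey bars are medians over all tested genes in 6 length classes. Short subunit transcripts lie above 0 and the longest, Polr2a and Polr1a, lie near -1.

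The median differences of the 5 subunit groups moved with this library. Without it they were -0.12 for polymerase I, 0.00 for the pair shared by I and III, -0.25 for the small subunits of all 3, -0.07 for polymerase II and -0.09 for polymerase III. These medians were not tested against one another, and each shift was read beside the spread between replicates of the group's median, which was from 0.10 to 0.55. That spread includes PBS replicate 3 and is widened by it, so it cannot judge the shift made by leaving this library out. The 27 members together took 0.172%, 0.170% and 0.159% of the reads in PBS and 0.122%, 0.118% and 0.118% in the libraries labelled pIpC. In the same libraries neutrophil markers took the shares given above, and their part in this was not tested.

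Levels were compared between subunits as normalized count per kilobase of the longest transcript, averaged over PBS replicates 1 and 2. Polr1d was the highest at 1339, followed by Polr2a at 1298, Polr2m at 1154, Polr2g at 944 and Polr2k at 782. Polr3g was the lowest at 86.3, below Polr3f at 145, Polr3a at 151 and Polr1e at 162. The 3 largest subunits were thus ordered Polr2a, Polr1a and Polr3a (at 1298, 214 and 151), and the partners Polr2b, Polr3b and Polr1b stood at 641, 301 and 292. Polr3b and Polr1b did not differ beyond the spread, with Polr3b at 316 and 286 and Polr1b at 275 and 309 in these libraries. In the libraries labelled pIpC, Polr1d (1280) and Polr3g (83.3) were again the highest and lowest, Polr2a stood at 772 ± 46 (SD, n = 3), and Polr3d fell from rank 23 to rank 30 of the 31 genes. The median over polymerase III subunits was 302, 286 and 217 per kilobase in PBS and 218, 182 and 179.8 in the libraries labelled pIpC. The polymerase II median was 600, 657 and 890 in PBS and 618, 626 and 588 in the libraries labelled pIpC. These orders and medians depended on the transcript length used. Divided by the median instead of the longest transcript length, Polr2b was the highest at 4258 and Polr2l the lowest at 222, with Polr1d at 1569 and Polr3g at 359.5 (means of PBS replicates 1 and 2). The partners Polr1b and Polr3b then stood at 1621 and 1378, and Polr3d went from rank 20 to rank 25. The polymerase III median with that length was 778, 755 and 730.05 in PBS and 703, 775 and 721 in the libraries labelled pIpC. The groups overlapped with either length. Averaged over libraries, this median was 268 in PBS and 193 in the libraries labelled pIpC with the longest length. With the median length these means were 755 and 733. The mean polymerase II median in PBS rose from 716 to 1272.

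**Figure D4:**
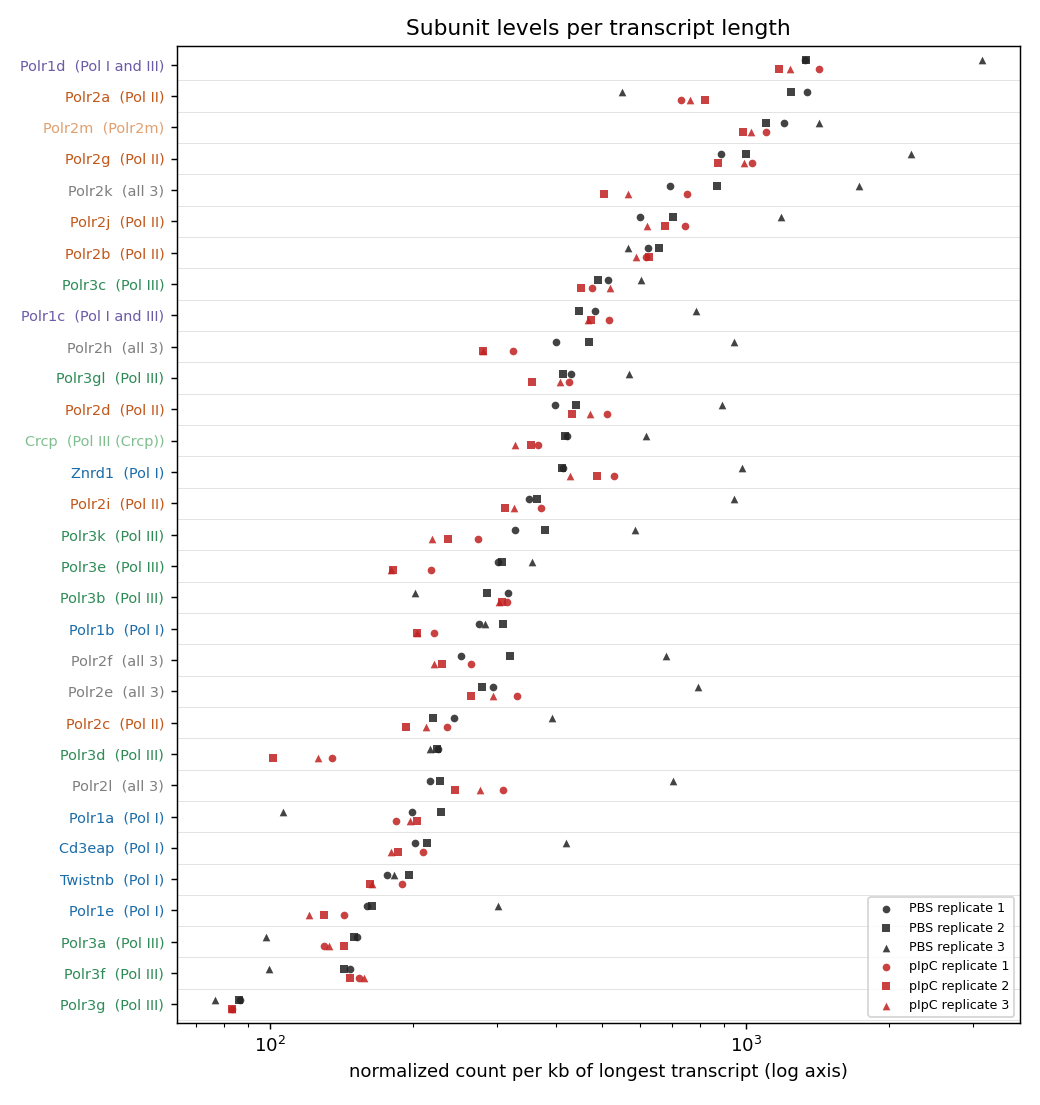
Normalized count per kilobase of the longest transcript for the 31 subunit genes, on a log axis, ordered by the mean of PBS replicates 1 and 2, with PBS libraries in black and libraries labelled pIpC in red. Polr1d and Polr2a stand at the top and Polr3g at the bottom, and subunits of polymerases I and III fill much of the lower part.

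The factors that bring these enzymes to their genes were read from lists chosen for their role. Each count below of factors called with all 6 libraries stands beside 20.4% lower and 25.0% higher over all genes tested. Of 9 polymerase I factors, 4 were lower and 1 was higher, and the median difference was -0.29. Taf1a, of the promoter selectivity factor SL1, was counted at 395, 354 and 431 in PBS and at 169, 246 and 221 in the libraries labelled pIpC, a difference of -0.90 ± 0.19 (SE, limma adjusted p = 0.0110). Rrn3, the factor that recruits polymerase I, was counted at 1131, 1159 and 1091 and at 932, 882 and 827, a difference of -0.36 ± 0.11 (SE, limma adjusted p = 0.0490). With 1 library left out at a time, Rrn3 kept its call in 2 of the 6 fits and Taf1a in all 6. Ubtf, which holds ribosomal DNA open, differed by -0.24 (95% interval -0.57 to 0.08) and did not pass. The 1 higher gene was Cavin1, at 3.64, which is also known as a transcript release factor but mainly as a coat protein of caveolae. The list also held Znrd1as, the antisense neighbor of Znrd1, which is not a factor and did not pass.

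Of 17 polymerase III factors, 6 were lower and none was higher, with a median of -0.11. At an unadjusted p under 0.05 none of them was higher, and the counts by edgeR and DESeq2 were 0 and 0. Gtf3a, the 5S-specific factor TFIIIA, was counted at 453, 542 and 612 in PBS and at 259, 294 and 303 in the libraries labelled pIpC, a difference of -0.90 ± 0.17 (SE, limma adjusted p = 0.00599). Brf1, a TFIIIB subunit, differed by -0.32 ± 0.12 (SE, limma adjusted p = 0.0769), and this call was lost when any library other than PBS replicate 3 was left out. The others were Brf2 (-0.60), Gtf3c5 (-0.49), Snapc1 (-0.78) and Snapc4 (-0.60), with limma adjusted p of 0.0996, 0.0372, 0.0145 and 0.0631. Gtf3a and Snapc1 were the 2 factors of this list called whichever library was left out. Brf2 kept its call in 2 of these fits, Gtf3c5 in 4 and Snapc4 in 1. Maf1, a repressor of polymerase III, was counted at 1441, 1543 and 1982 in PBS and at 1875, 1971 and 2088 in the libraries labelled pIpC. It did not pass with all libraries (0.27 ± 0.15, SE, limma adjusted p = 0.209) and was higher without PBS replicate 3 (0.41, limma adjusted p = 0.00141). Without that library 4 factors of this list were higher and 9 lower, beside 34.5% higher and 30.6% lower over all genes tested.

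Of 31 general transcription factors of polymerase II, 5 were lower, 4 were higher and 22 did not pass. The lowest of those called was Mnat1, of the kinase module of TFIIH, at -0.97 ± 0.16 (SE, limma adjusted p = 0.00345). The highest called was Gtf2h3, a core TFIIH subunit, counted at 52.8, 55.7 and 60.0 in PBS and at 308, 289 and 284 in the libraries labelled pIpC. Its difference was 2.37 ± 0.17 (SE, limma adjusted p = 0.000110). Taf4, Taf5 and Taf6 of TFIID were also higher, at 0.56, 0.55 and 1.01. Of 20 elongation factors 3 were higher and 1 was lower. Ell2 had the largest difference, 1.77 ± 0.17 (SE, limma adjusted p = 0.000300), and Larp7, of the 7SK complex, the lowest, -0.53 ± 0.20 (SE, limma adjusted p = 0.0815).

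Of 15 genes for the assembly and nuclear import of the polymerases, 7 were lower (Rpap2, Rpap3, Gpn1, Ruvbl1, Telo2, Uri1 and Slc7a6os) and 8 did not pass. That is 46.7% lower, beside 20.4% over all genes tested, and 2 of the 15 were called whichever library was left out. The median was -0.38. Telo2, a cofactor of the chaperone complex R2TP, was counted at 704, 719 and 669 in PBS and at 420.2, 397 and 392 in the libraries labelled pIpC. It differed by -0.79 ± 0.12 (SE, limma adjusted p = 0.00267), and by -0.82 without PBS replicate 3. Of 9 genes for mitochondrial transcription, 3 were lower (Polrmt, Tfb1m and Mterf2, at -0.51, -0.88 and -1.20) and 6 did not pass. Myc, an activator of all 3 enzymes in growing cells, was counted at 2667, 2582 and 4145 in PBS and at 1834, 1727 and 1670.01 in the libraries labelled pIpC, a difference of -0.81 ± 0.20 (SE, limma adjusted p = 0.0193). Over the 6 lists of factors together, 26 of 101 genes were lower and 8 were higher, that is 25.7% lower, beside 20.4% lower and 25.0% higher over all genes tested. Of the 101, 14 were called whichever library was left out, beside 4380 of the 15020 genes tested.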

How the data were processed

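Gene-level RNA-seq of 3 PBS and 3 pIpC libraries was analysed. The authors deposited 1 table of normalized counts, a signal in which each column is the count divided by its size factor. The submitters' processing notes name HISAT2 2.2.1, featureCounts and edgeR on GRCm38, whereas the paper's methods name nf-core/rnaseq with STAR and RSEM, and DESeq2. Divided by the step of 1 read, 100% of the nonzero values in each column came out whole (tolerance 0.01 read), which recovered the reads. Columns of per-sample values left out numbered 0.

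Symbols (for 55141 genes), positions and lengths came from GENCODE M21 on GRCm38, and promoter windows from RefSeq on GRCm38.p6. limma 3.58.1 with an intensity trend (R 4.3.3) was run on log2(normalized count + 1) for 15020 genes with a mean of at least 10, calling genes at the study's threshold, a p of 0.1 after Benjamini-Hochberg adjustment. A fold change on this scale understates that of low genes. The members and lists were chosen with earlier results of these data known. The rule found 28 genes, of which 1 is not reported here and enters no count of members. Every other member was named, with library values for catalytic subunits, the Polr3g pair and the extremes of each subunit group. The highest and lowest called gene of each factor list, Brd9, Myc, Rrn3, Ubtf, Brf1 and Maf1 were also named. Further genes were named after their values were seen.

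Same-numbered libraries deviated together with correlations of -0.117, 0.143 and 0.0405, so that no pairing was used. Libraries of a group differed by more than sampling noise, with a chi-square statistic per gene of 6.66 at the least (PBS replicates 1 and 2) and 208 at the most (PBS replicates 1 and 3). The alternatives were other pseudocounts (0.1 and 10), filters (none, and a mean of at least 50) and scalings, each library left out, a replicate block, no intensity trend, edgeR 4.0.16 and DESeq2 1.42.0 on recovered reads, an adjusted p under 0.05, trends with transcript length or GC content removed, and, for levels, the median transcript length. The test was run on simulated counts with planted changes larger than any of the members, and without a library like PBS replicate 3. That run does not show how the test behaves for these members. Values per exon were not analysed here.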

Additional observations from a re-analysis of the deposited data

How the results depend on the processing

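The count of genes changed between the groups was 6808, and it stayed within 1.5 times of this under every alternative. The count of subunits changed was 5, all lower, and 8, all lower, by DESeq2 on recovered reads. It was 8 without PBS replicate 1, 9 without PBS replicate 3, 3 without pIpC replicate 2 and 3 without pIpC replicate 3, a range of 3 to 9 over the libraries left out. The count of lower subunits ranged from 3 to 8 in the same fits. Quantile normalization moved the median of all genes from 0.01 to -0.12, and differences under it are to be read against that shift. With a replicate block, 5 subunits were called as before, and of the genes named Rrn3 (-0.36), Brf1 (-0.32) and Larp7 (-0.53) lost their call. Same-numbered libraries are not known to share more than a number. The 5 group medians moved by less than the spread between replicates under every alternative run, except that of polymerase III. That one went from -0.15 to -0.25 with quantile normalization and to -0.013 with the trend with transcript length removed. The spread holds PBS replicate 3 itself and is widened by it, so it cannot judge the fit without this library. In that fit, the median of the small subunits of all 3 went from -0.67 to -0.25, and that of polymerase II from -0.34 to -0.07. With the median transcript length, the median PBS level per kilobase was 900.2 in place of 238 for polymerase I, 955 in place of 469.9 for the small subunits of all 3, 1272 in place of 716 for polymerase II and 755 in place of 268 for polymerase III. Signs turned for differences that had not passed the test. Removing the trend with transcript length gave -0.21 for Polr1a, 0.25 for Znrd1, 0.10 for Polr1c, 0.17 for Polr2d, 0.021 for Polr2g, 0.17 for Polr2j, -0.15 for Polr3a and 0.031 for Polr3gl. Over the libraries left out, the lowest and highest values were -0.13 and 0.42 for Polr1a, -0.41 and 0.21 for Znrd1, -0.35 and 0.064 for Polr1c, -0.71 and 0.046 for Polr2e, -0.54 and 0.31 for Polr2l, -0.070 and 0.039 for Polr2b, -0.41 and 0.17 for Polr2d, -0.63 and 0.031 for Polr2g, -0.43 and 0.062 for Polr2j, -0.16 and 0.16 for Polr3a, and -0.051 and 0.035 for Polr3g. Apart from Polr2b, the sign differed from that of all libraries in these genes without PBS replicate 3. Quantile normalization turned Polr3a to -0.0069. Polr3g, near 0, turned to -0.00053 by DESeq2, -0.012 by edgeR, -0.067 with the GC trend removed and -0.032 with median-centred log ratios. Of 873 comparisons over 46 named genes, 798 kept their direction and side of the threshold, 27 lost and 22 gained a call, and 26 turned sign. The causes were not tested. All members held at least 202 reads in every library.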
